A study of Mus musculus with 20 samples.

Results

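The genes described here build the mitochondrial ribosome and the machinery that brings proteins into mitochondria. They were taken by name, as every probe set of the deposited array table whose only gene symbol begins with Mrpl, Mrps, Timm or Tomm. No value set which probe sets joined, but the list was chosen with earlier results of these data known. They amount to 143 of the 10748 probe sets of the table and to 93 genes. Of these, 70 probe sets (46 genes) carry proteins of the large ribosomal subunit (Mrpl), 35 (27 genes) proteins of the small subunit (Mrps), 23 (14 genes) translocase components of the inner membrane and their helpers (Timm), and 15 (6 genes) components of the outer membrane translocase (Tomm). The prefixes also take in a few genes with another role: Timmdc1 encodes an assembly factor of respiratory complex I, Tomm34 a cytosolic co-chaperone, and Mrps36 a protein now assigned to the alpha-ketoglutarate dehydrogenase complex.

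Total RNA was measured on Affymetrix arrays of 20 muscles from female C57BL/6 mice aged 14 weeks, 4 arrays in each of 5 groups. The gastrocnemius, a calf muscle, came from mice with a transgene for human SOD1 bearing the G93A mutation (SOD1), a model of amyotrophic lateral sclerosis taken here at the symptomatic stage, from mice whose sciatic nerve had been crushed for 30 s at 12 weeks of age and that were killed 2 weeks later (crush), and from non-transgenic mice (NTg). The triceps, a forelimb muscle, came from the SOD1 and the NTg mice. The promoter and copy number of the transgene and the genotype of the crushed mice were not given in the sources used here. No sham-operated group was analysed. The design text has the gastrocnemius and the triceps of a genotype come from 4 mice, but no label says which array of each muscle belongs to which mouse, so all arrays were treated as separate samples and p-values measure the spread between them.

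The proteins of the mitochondrial ribosome are all encoded in the nucleus, as are the translocases. They are made in the cytosol and enter through the TOM complex of the outer membrane. Proteins with a cleavable presequence then pass the TIM23 channel into the matrix, carrier proteins are placed in the inner membrane by the TIM22 complex, and small TIM chaperones guide them across the space between the membranes. The assembled mitochondrial ribosome translates the few respiratory chain subunits that mitochondrial DNA encodes, so these genes stand upstream of the energy metabolism of muscle fibres.

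The proximal promoters of 4 member genes that changed between groups are shown because those genes include both directions of change and because transcription factors that serve nuclear genes of mitochondria, NRF1, GABPA (a factor of the ETS family) and YY1, are known to bind near such start sites. Each window runs 5′ to 3′ from 250 bases before to 50 bases after the start site in the RefSeq annotation of build GRCm38.p6. All 4 genes lie on the minus strand: Mrps24 at chr11:5707652-5707951, Mrps21 at chr3:95871465-95871764, Timm23 at chr14:32201842-32202141 and Mrpl41 at chr2:24975049-24975348. Capitals mark a match to the searched motifs on either strand.
Mrps24: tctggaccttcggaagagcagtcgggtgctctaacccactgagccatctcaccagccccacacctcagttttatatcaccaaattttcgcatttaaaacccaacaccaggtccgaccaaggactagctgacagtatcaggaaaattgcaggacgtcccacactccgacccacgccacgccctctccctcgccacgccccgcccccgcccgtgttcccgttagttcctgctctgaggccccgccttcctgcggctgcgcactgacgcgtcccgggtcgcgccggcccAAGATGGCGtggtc
Mrps21: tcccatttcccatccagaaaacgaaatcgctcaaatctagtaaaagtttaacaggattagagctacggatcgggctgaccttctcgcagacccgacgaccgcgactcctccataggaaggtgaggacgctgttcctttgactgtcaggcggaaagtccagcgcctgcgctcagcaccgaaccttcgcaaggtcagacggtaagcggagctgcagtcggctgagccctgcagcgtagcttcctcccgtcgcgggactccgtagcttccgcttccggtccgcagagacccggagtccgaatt
Timm23: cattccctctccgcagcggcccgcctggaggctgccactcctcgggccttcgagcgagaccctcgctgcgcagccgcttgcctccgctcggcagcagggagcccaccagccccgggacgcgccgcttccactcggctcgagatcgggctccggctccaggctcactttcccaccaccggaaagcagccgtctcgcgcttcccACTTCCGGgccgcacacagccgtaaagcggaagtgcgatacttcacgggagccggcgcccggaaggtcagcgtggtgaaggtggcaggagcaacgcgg
Mrpl41: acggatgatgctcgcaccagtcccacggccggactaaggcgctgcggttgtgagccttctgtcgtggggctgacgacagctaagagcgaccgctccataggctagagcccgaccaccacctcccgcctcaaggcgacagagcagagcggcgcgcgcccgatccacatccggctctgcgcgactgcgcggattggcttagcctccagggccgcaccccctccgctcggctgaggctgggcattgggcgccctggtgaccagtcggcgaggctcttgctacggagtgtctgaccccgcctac
The capitals in Mrps24 are AAGATGGCG, the YY1 letters, which begin 36 bases after the start site, and those in Timm23 are the reverse complement of CCGGAAGT, the ETS letters, which begin 48 bases before it. The windows of Mrps21 and Mrpl41 hold no match. Mrpl48, another gene that changed, has 4 windows on chromosome 7, and 1 of them holds the ETS letters, beginning 35 bases before the start.

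Over the 82 member genes with a window in this table, 17 of 90 windows (18.9%) hold the ETS letters CCGGAAGT, against 3.89% of all 32851 windows of the same length. The NRF1 core GCGCATGCG is in 8 windows (8.89%, against 1.75% of all windows), 6 of them in front of Mrpl genes. The YY1 letters AAGATGGCG are in 7 windows (7.78%, against 1.4% of all windows). The NRF1 core overlaps its own reverse complement and such a window was counted once. A match describes the letters only.

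Signals were deposited as log2 values of MAS5, the Affymetrix summary of a probe set, and a fold change is given as the difference of group means on that scale. Array medians lay between 6.61 and 6.76 log2 over the 20 arrays and arrays of a group correlated at 0.916 to 0.973. The 9 tested fibre marker probe sets stood at group means of 10.41 to 12.84 log2, while another probe set of the fast myosin Myh1, which was not tested, stood at 3.45 to 4.81. Chrna1, the acetylcholine receptor subunit that denervated muscle switches on, was at 8.57, 10.23, 10.30 and 10.85 log2 in the SOD1 gastrocnemius, at 6.97, 7.28, 7.40 and 11.34 in the crushed gastrocnemius, at 6.55, 6.24, 6.81 and 6.20 in the NTg gastrocnemius, at 7.59, 8.86, 8.62 and 11.03 in the SOD1 triceps and at 5.96, 6.05, 5.83 and 5.81 in the NTg triceps. Replicate 4 of the crushed group therefore stands apart from its 3 companions, and results on crush are also given without it. Those results describe the crushed muscles with Chrna1 at 6.97, 7.28 and 7.40 log2. Replicate 4 of the SOD1 triceps, at 11.03, also lay above its companions. The mouse Sod1 probe set, which is no check of the human transgene, differed by 0.40 log2 between SOD1 and NTg gastrocnemius (SE 0.19, limma adjusted p = 0.172). NTg triceps replicate 4 is called triceps in its title and gastrocnemius in its description; it was kept by its title.

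After the 30% of probe sets with the lowest mean over all arrays (under 5.88 log2) were set aside, 130 member probe sets of 92 genes were tested among 7523. The members left aside number 13 and include both probe sets of Timm9, a small TIM chaperone, so that gene has no test. A probe set is called when its limma p, adjusted by Benjamini-Hochberg over all 7523, is under 0.05.

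In the gastrocnemius of SOD1 mice, 3 member probe sets rose and 3 fell against NTg gastrocnemius. Those that fell were Mrps24 and Mrps21, proteins of the small ribosomal subunit, and Timm23, the pore of the presequence translocase. Those that rose were Mrps35 of the small subunit and Mrpl41 and Mrpl48 of the large subunit. The 6 calls are 4.62% of the members, where 12% of all tested probe sets were called. The median change of the 130 members was -0.037 log2, beside -0.0015 over all tested probe sets. In whole muscle, fewer cells of a type and less RNA per cell cannot be told apart.

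Mrps24 (probe set 1450865_s_at) stood at 7.89, 7.56, 7.68 and 7.84 log2 in SOD1 gastrocnemius, against 8.26, 8.38, 8.17 and 8.14 in NTg gastrocnemius. Every SOD1 array lay below every NTg array. The difference of means was -0.50 log2 (SE 0.13), a fold of 0.709 with a 95% interval of 0.584 to 0.861 (limma adjusted p = 0.0243). A second Mrps24 probe set (1438563_s_at) lay at 7.90, 7.92, 8.01 and 7.90 in SOD1 gastrocnemius, against 8.17, 8.14, 8.07 and 8.30 in NTg gastrocnemius. These groups did not overlap either, but the difference of -0.24 log2 was not called (adjusted p = 0.155). Both Mrps24 probe sets carry the suffix s_at, which marks probes shared between transcripts. Mrps21 was at 9.31, 9.07, 9.16 and 8.91 in SOD1 gastrocnemius, against 9.55, 9.50, 9.69 and 9.61 in NTg gastrocnemius. Again no SOD1 array reached the lowest NTg array, and the mean differed by -0.47 log2 (SE 0.13, adjusted p = 0.0224). Timm23 had 10.84, 10.70, 10.57 and 10.31 in SOD1 gastrocnemius, against 11.04, 11.09, 11.02 and 11.05 in NTg gastrocnemius. The NTg arrays lay within a narrow band above all SOD1 arrays, and the difference was -0.44 log2 (SE 0.14), a fold of 0.735 with an interval of 0.599 to 0.902 (adjusted p = 0.0461).

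Among the genes that rose, Mrps35 stood at 6.82, 7.32, 7.23 and 7.26 log2 in SOD1 gastrocnemius, against 6.70, 6.49, 6.77 and 6.37 in NTg gastrocnemius. The lowest SOD1 array lay just above the highest NTg array, and the difference was 0.58 log2 (SE 0.16), a fold of 1.49 with an interval of 1.18 to 1.89 (adjusted p = 0.0283). Mrpl41, a large-subunit protein also known to bind the survival factor Bcl-2, is on the array with a pair of probe sets. The first (1428588_a_at) was at 7.50, 7.73, 7.78 and 7.91 in SOD1 gastrocnemius, against 7.19, 7.19, 7.36 and 6.90 in NTg gastrocnemius. All SOD1 arrays were above all NTg arrays, by 0.57 log2 between means (SE 0.16, adjusted p = 0.0269). The second (1428589_at) had 8.30, 8.46, 8.50 and 8.24, against 8.01, 8.18, 8.25 and 7.99 in NTg gastrocnemius, which overlapped by a narrow margin; its difference of 0.27 log2 (SE 0.11) was not called (adjusted p = 0.119). Mrpl48 (1437997_x_at) was at 7.82, 8.05, 7.97 and 8.23 in SOD1 gastrocnemius, against 7.43, 7.74, 7.55 and 7.53 in NTg gastrocnemius. The groups did not overlap and differed by 0.45 log2 (SE 0.13, adjusted p = 0.0301). Its other probe set (1428302_at) went the other way by -0.042 log2 (SE 0.19, adjusted p = 0.911), so the call on Mrpl48 rests on 1 probe set with a suffix that marks possible cross-hybridization.

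By family, 38 of 65 Mrpl probe sets and 20 of 31 Mrps probe sets were lower in SOD1 than in NTg gastrocnemius, with medians of -0.031 and -0.13 log2. The medians were -0.025 for 19 Timm and -0.054 for 15 Tomm probe sets, of which 10 in each family were lower. Groups without overlap were found for 24 members (9 higher, 15 lower), 18.5% of those tested, beside 26% of all probe sets. At an unadjusted p under 0.05 the count was 24 members (18.5%), beside 29.5% of all, and 15 without NTg gastrocnemius replicate 1. The largest difference among the members, -0.63 log2 (SE 0.22) in the large-subunit gene Mrpl42, missed the threshold (adjusted p = 0.0623), although its SOD1 arrays at 10.59, 10.38, 10.56 and 9.87 were all below the NTg arrays at 10.82, 11.18, 11.02 and 10.89. Timm17b, a partner of the Timm23 pore, had the largest uncalled positive difference, 0.49 log2 (SE 0.22, adjusted p = 0.141), and 0.41 log2 on its second probe set (adjusted p = 0.114).

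The calls in SOD1 gastrocnemius were sensitive to single arrays. Without SOD1 replicate 2 or without SOD1 replicate 4, limma called 0 members (17 and 13 at an unadjusted p under 0.05). Without SOD1 replicate 3 it called 1, without NTg gastrocnemius replicates 1, 2, 3 or 4 it called 2, 2, 3 or 1, and without SOD1 replicate 1 it called 11. The 6 called differences kept their direction in these fits. The share of all probe sets called in each fit is not given here, so these counts are not a result about the members alone. Macrophage markers moved with the same comparison: 8 of 11 tested probe sets rose, with summed signals of 1617 to 2184 in SOD1 gastrocnemius and 825 to 1118 in NTg gastrocnemius, and their part in the members' values was not tested. None of the 9 fibre marker probe sets was called (0 at an unadjusted p under 0.05). All 6 Schwann cell probe sets were lower (median -0.49 log2) and all 3 adipocyte probe sets higher (0.33). Of 9 fibroblast probe sets 7 were higher (0.12), and of 5 endothelium probe sets 4 were lower (-0.079). These lists held 0 calls, and their part in the members' values was not tested.

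**Figure D1:**
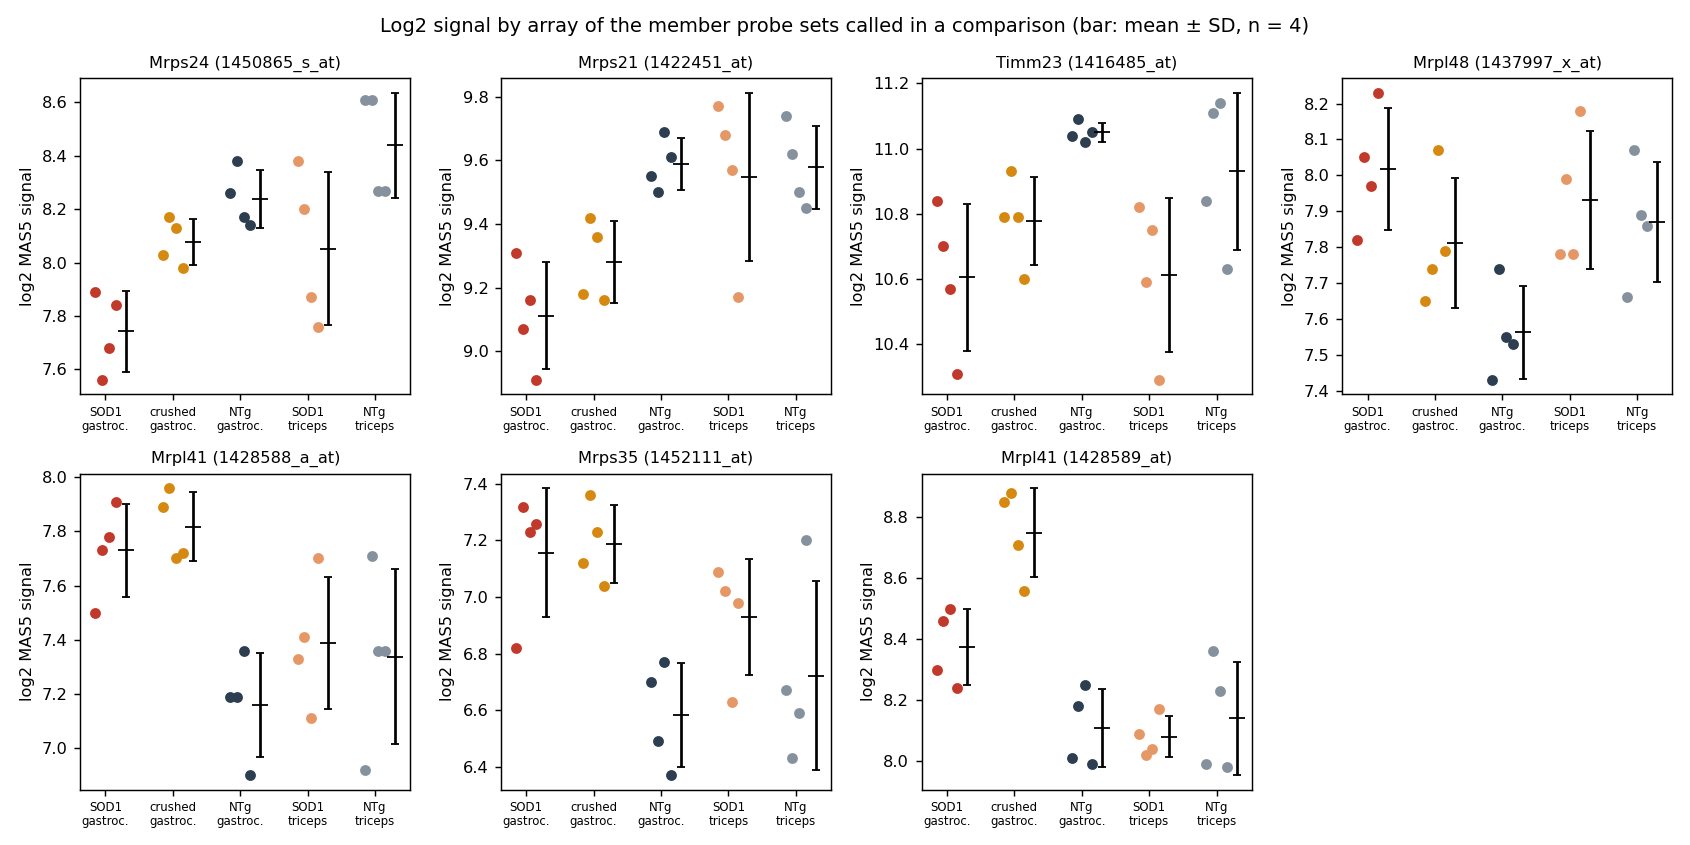
Log2 MAS5 signal (vertical axis) of the 7 member probe sets called in a comparison, by group on the horizontal axis. Each point is an array, and the bar beside it is the group mean with its SD (n = 4). In SOD1 gastrocnemius Mrps24, Mrps21 and Timm23 lie below every NTg gastrocnemius array, while both Mrpl41 probe sets of the crushed gastrocnemius lie above every NTg gastrocnemius array.

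After nerve crush, 3 member probe sets rose against NTg gastrocnemius and 0 fell. The rises were in Mrpl41, on both of its probe sets, and in Mrps35. The calls are 2.31% of the members, beside 4.13% of all probe sets. At an unadjusted p under 0.05 limma had 17 members in both directions together (13.1%, beside 20.7% of all), and 35 without crushed replicate 4 or 10 without crushed replicate 2. The members' median was 0.10 log2, beside 0.017 over all, and 91 of 130 were higher. SOD1 and crush share the NTg gastrocnemius arrays, so the comparisons are set side by side only.

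Mrpl41 on probe set 1428589_at was at 8.85, 8.88, 8.71 and 8.56 log2 in crushed gastrocnemius, against 8.01, 8.18, 8.25 and 7.99 in NTg gastrocnemius. All crushed muscles were well above all NTg muscles, by 0.64 log2 (SE 0.11), a fold of 1.56 with an interval of 1.33 to 1.84 (limma adjusted p = 0.00403). On 1428588_a_at the crushed muscles had 7.89, 7.96, 7.70 and 7.72, against 7.19, 7.19, 7.36 and 6.90 in NTg gastrocnemius. This too left a gap between the groups, with a difference of 0.65 log2 (SE 0.16, adjusted p = 0.0245). Mrps35 was at 7.12, 7.36, 7.23 and 7.04 after crush, against 6.70, 6.49, 6.77 and 6.37 in NTg gastrocnemius. Its groups were again apart, by 0.61 log2 (SE 0.16, adjusted p = 0.041).

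Of the genes that fell in SOD1 gastrocnemius, Mrps21 was at 9.18, 9.42, 9.36 and 9.16 after crush, a difference from NTg of -0.31 log2 that was not called (adjusted p = 0.17). Timm23 stood at 10.79, 10.93, 10.79 and 10.60 (-0.27 log2, adjusted p = 0.283) and Mrps24 on 1450865_s_at at 8.03, 8.17, 8.13 and 7.98 (-0.16 log2, adjusted p = 0.539). The crushed Mrps21 and Timm23 arrays nevertheless all lay below the NTg arrays. Groups without overlap were found for 13 members after crush (8 higher, 5 lower), 10% of those tested, beside 16.4% of all probe sets. The family medians were 0.15 for Mrpl, 0.093 for Mrps, 0.044 for Timm and 0.013 log2 for Tomm, and 48 of 65 Mrpl probe sets were higher.

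The number of member probe sets called after crush moved when some single arrays were left out. With crushed replicate 4 left out, 9 of 130 were called, beside 5.25% of all probe sets. These shares lie near each other, so the count is not a result about the members alone. All 9 called probe sets rose and 0 fell. They were both of Mrpl41, Mrps35, Mrpl44 (0.61 log2, adjusted p = 0.0114), Mrpl47 (0.65 log2, adjusted p = 0.0151), Mrpl28, Mrpl3, Mrpl12 and Mrpl39. Mrpl12, a large-subunit protein known to bind the mitochondrial RNA polymerase, had 8.81, 8.86, 8.99 and 7.97 in crushed gastrocnemius, against 8.60, 8.33, 8.35 and 8.32 in NTg gastrocnemius. Mrpl47 had 7.82, 7.80, 7.79 and 6.67 in crushed gastrocnemius, against 7.31, 6.93, 7.08 and 7.30 in NTg gastrocnemius. In both genes 3 crushed arrays lay above all NTg arrays and replicate 4 below them. The median of the members without that array was 0.13 log2. Leaving out crushed replicate 1 or 2, or NTg gastrocnemius replicate 1, 2 or 4, left 1 call, that of Mrpl41 on 1428589_at. Schwann cell markers also moved in this comparison: 2 of 6 tested probe sets, both of Mbp, fell, with summed signals of 388 to 1756 after crush and 1717 to 2430 in NTg gastrocnemius. All 11 macrophage marker probe sets were higher after crush, with 0 called (median 0.36 log2, 4 at an unadjusted p under 0.05) and summed signals of 1040 to 1515 after crush and 825 to 1118 in NTg gastrocnemius. Of 9 fibroblast probe sets 0 were called and 3 had an unadjusted p under 0.05. Their directions were mixed, with 4 higher and 5 lower (median -0.16, from -0.45 to 0.79 log2). The part of these lists in the members' values was not tested.

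**Figure D2:**
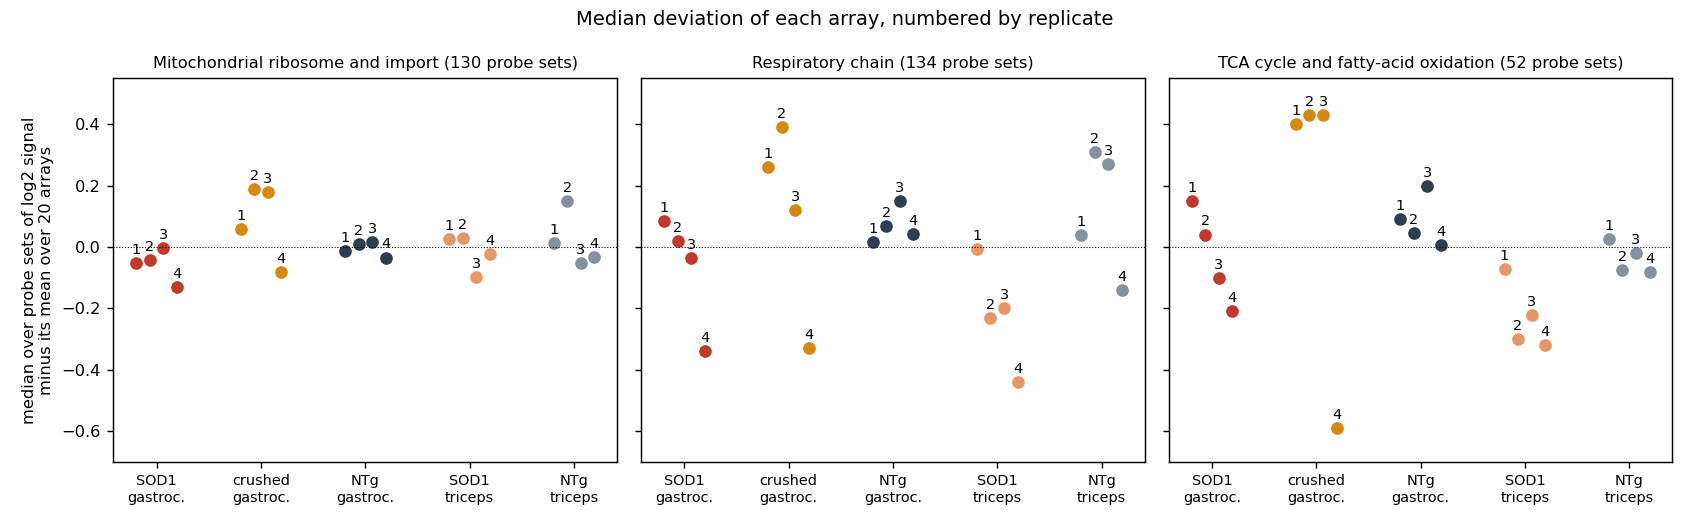
Median over the tested probe sets of each array's log2 signal minus the probe set's mean over the 20 arrays (vertical axis), for the members, the respiratory chain and the TCA cycle with fatty-acid oxidation, by group. Points are arrays, numbered by replicate. Crushed replicates 1 to 3 stand at 0.06, 0.19 and 0.18 for the members and replicate 4 at -0.081.

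The shift can be followed array by array in the plot of array medians. Taken over the 130 members, each array's median deviation from the mean of all 20 arrays was -0.052, -0.042, -0.0021 and -0.13 log2 in SOD1 gastrocnemius, 0.06, 0.19, 0.18 and -0.081 in crushed gastrocnemius, and -0.012, 0.009, 0.016 and -0.034 in NTg gastrocnemius. Crushed replicates 1 to 3 were the highest gastrocnemius arrays and SOD1 replicate 4 was the lowest. In the triceps the values were 0.027, 0.028, -0.098 and -0.024 in SOD1 mice and 0.014, 0.15, -0.053 and -0.031 in NTg mice, which overlapped throughout.

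SOD1 set against crushed gastrocnemius gave 0 called members, as 0% of all probe sets were called in that comparison. At an unadjusted p under 0.05, limma had 16 members (12.3%), beside 12.5% of all probe sets. Single arrays moved that count: it was 5 without SOD1 replicate 4, 6 without crushed replicate 2 and 46 without crushed replicate 4. Of the 130 members 105 were lower in SOD1 than in crushed gastrocnemius, and the median was -0.17 log2, beside -0.0013 over all probe sets. The medians were -0.19 for Mrpl, -0.18 for Mrps, -0.085 for Timm and -0.075 log2 for Tomm. Groups without overlap were found for 5 members, all lower in SOD1 (3.85%, beside 5.48% of all). Mrpl41 on 1428589_at was among them, at 8.30, 8.46, 8.50 and 8.24 in SOD1 gastrocnemius and 8.85, 8.88, 8.71 and 8.56 in crushed gastrocnemius. Its difference was -0.37 log2 (SE 0.11, adjusted p = 0.226). Marker lists of other cells also differed in their medians, with 0 called. The macrophage median was 0.58 log2 (6 of 11 at an unadjusted p under 0.05), with summed signals of 1617 to 2184 in SOD1 and 1040 to 1515 in crushed gastrocnemius. The Schwann cell median was 1.21 log2 (4 of 6 at an unadjusted p under 0.05), with sums of 687 to 2359 in SOD1 and 388 to 1756 in crushed gastrocnemius. Most of these 6 are probe sets of the myelin gene Mbp, while Sox10 was slightly lower in SOD1 (means of 6.04 and 6.16 log2). The part of these lists in the members' values was not tested.

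The largest negative differences between SOD1 and crushed gastrocnemius lay in large-subunit genes, Mrpl11 (1437839_x_at, -0.57 log2, adjusted p = 0.342), Mrpl15 (1434970_a_at, -0.51, adjusted p = 0.226) and Mrpl19 (-0.47, adjusted p = 0.373). The other Mrpl11 probe sets gave -0.19 and -0.019 log2, and the other Mrpl15 probe sets -0.44, -0.36 and -0.19, so the direction was shared and the size was not. The largest positive differences were 0.36 in Mrpl52 (1460701_a_at), 0.22 in Mrpl33 and 0.22 log2 in Tomm20 (1435534_a_at), with adjusted p of 0.662, 0.621 and 0.532. Without crushed replicate 4, 10 of 130 member probe sets were called, beside 8.03% of all probe sets. These shares lie near each other, so the count is not a result about the members alone. The members' median was -0.19 log2. All 10 called probe sets were lower in SOD1. They were Mrpl15 (-0.53 log2, adjusted p = 0.0186), Mrpl41, Mrpl37, Mrpl12, Mrpl3, Mrps36, Mrps31, Mrps23 and Timm44, the membrane anchor of the import motor, on 2 probe sets (-0.42 and -0.52 log2). Leaving out any other array of these groups gave 0 members called.

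**Figure D3:**
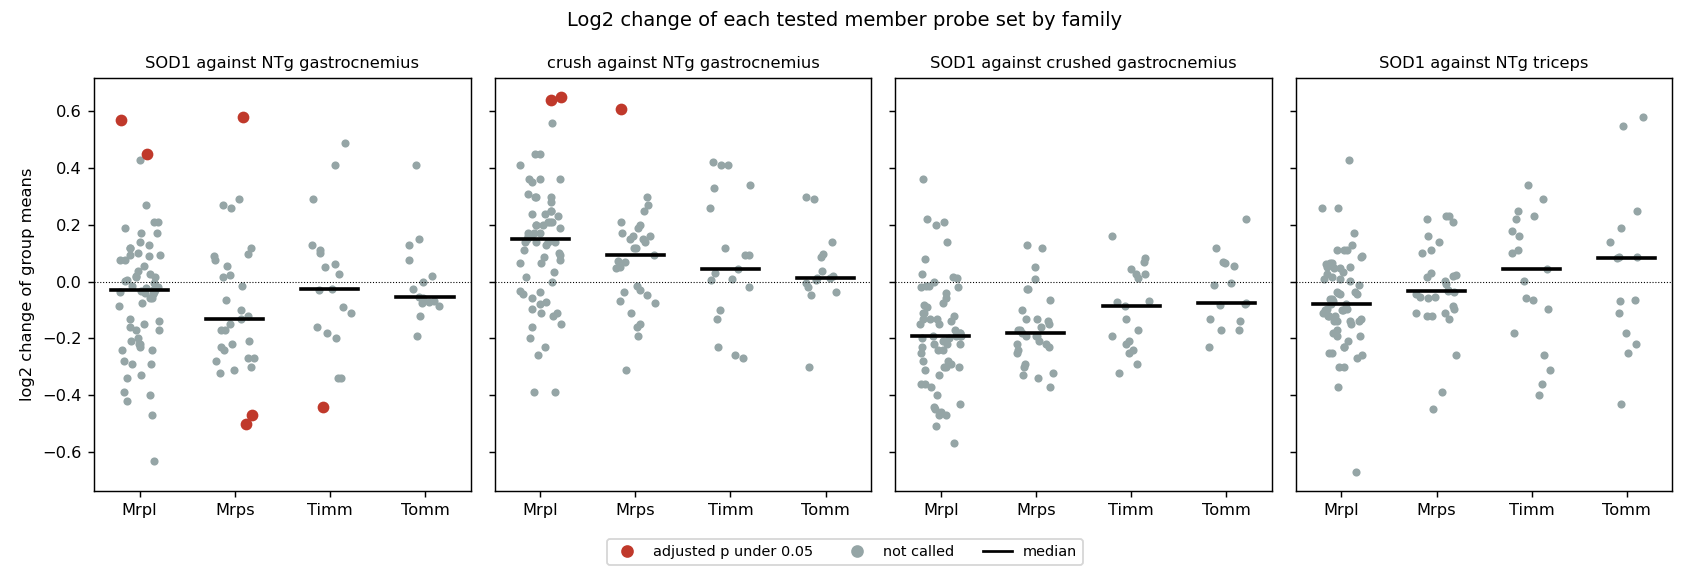
Log2 change of each tested member probe set (vertical axis) by family in 4 comparisons. Red points have an adjusted p under 0.05, grey points were not called, and bars are family medians. The Mrpl median stands at 0.15 after crush and at -0.19 in SOD1 against crushed gastrocnemius.

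In the triceps, SOD1 against NTg gave 0 called members, and 0.239% of all probe sets were called. At an unadjusted p under 0.05 limma had 11 members (8.46%, beside 15.2% of all). That count was 3 without SOD1 triceps replicate 4, 6 without SOD1 triceps replicate 2 or NTg triceps replicate 3, 7 without NTg triceps replicate 2, and 16 without NTg triceps replicate 4, the array with conflicting labels. Groups without overlap were found for 4 members (3.08%, beside 6.99% of all). The members' median was -0.044 log2, beside 0.013 over all, and 75 of 130 were lower. The medians were -0.077 for Mrpl, -0.032 for Mrps, 0.045 for Timm and 0.084 log2 for Tomm. The genes called in the gastrocnemius gave -0.39 for Mrps24 (1450865_s_at), -0.31 for Timm23, -0.032 for Mrps21, 0.21 for Mrps35, 0.051 for Mrpl41 (1428588_a_at) and 0.064 log2 for Mrpl48 (1437997_x_at) in the triceps, with adjusted p of 0.212 for Mrps24 and higher for the rest.

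The import receptor Tomm70a, which receives carrier proteins, had the largest positive differences in SOD1 triceps. On probe set 1417192_at it was at 6.30, 6.66, 6.33 and 6.99 log2 in SOD1 triceps, against 6.55, 5.77, 5.35 and 6.29 in NTg triceps. The groups overlapped and the difference of 0.58 log2 (SE 0.21) was not called (adjusted p = 0.227). On 1426676_s_at the difference was 0.55 (SE 0.17, adjusted p = 0.188), while the other Tomm70a probe sets gave 0.25 and -0.18 log2. On the negative side were Mrpl52 on 1460701_a_at (-0.67 log2, SE 0.32, adjusted p = 0.328), Mrps36 (-0.45, SE 0.23, adjusted p = 0.357) and the receptor Tomm22 on 1434420_x_at (-0.43, SE 0.20, adjusted p = 0.32). The other Mrpl52 probe sets gave 0.26 and -0.011, and the other Tomm22 probe set gave 0.14 log2, so the probe sets of neither gene shared a direction. All 9 fibre marker probe sets were lower in SOD1 triceps (median -0.64 log2, 0 called and 5 at an unadjusted p under 0.05). Their summed signals were 20336 to 36665 in SOD1 and 29196 to 62717 in NTg triceps. Also lower were all 5 endothelium (median -0.49 log2) and all 6 Schwann cell probe sets (-0.47, most of them of Mbp). Of 9 fibroblast probe sets 8 were lower (-0.38, 2 at an unadjusted p under 0.05), with 0 called in these lists. Of 11 macrophage probe sets 5 were lower (median 0.012), and of 3 adipocyte probe sets 1 (0.11). The part of these lists in the members' values was not tested.

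The SOD1 effect in the gastrocnemius minus that in the triceps was tested directly. No member was called, as 0% of all probe sets were, and limma had 4 members at an unadjusted p under 0.05 (3.08%), beside 9.44% of all. There were 0 such members without SOD1 triceps replicate 1, 10 without NTg triceps replicate 1 and 1 to 5 without any other array of the 4 groups. The 4 were Mrps21 (-0.44 log2, SE 0.18, adjusted p = 0.49), Mrpl41 on 1428588_a_at (0.52, SE 0.22, adjusted p = 0.494), Mrpl48 on 1437997_x_at (0.39, SE 0.18, adjusted p = 0.523) and Mrpl28 on 1437622_x_at (0.43 log2, adjusted p = 0.523). A call in the gastrocnemius and none in the triceps is therefore not shown to be a difference between the muscles. Differences of like or larger size that missed an unadjusted p of 0.05 were 0.64 log2 in Mrpl52 (1460701_a_at, SE 0.46), -0.52 in Mrps23 (1421874_a_at) and -0.44 in Tomm70a (1417192_at, SE 0.30). Marker lists differed in this contrast too, with 0 called. All 11 macrophage (median 0.84 log2, 6 at an unadjusted p under 0.05), all 9 fibre (0.61) and all 9 fibroblast probe sets (0.48, 3 at an unadjusted p under 0.05) were positive, and their part in the members' values was not tested.

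Between the muscles of NTg mice, gastrocnemius against triceps, 0 members were called, beside 1.71% of all probe sets. At an unadjusted p under 0.05 limma had 15 members (11.5%, beside 14.3% of all; 9 without NTg triceps replicate 2), the median was -0.044 log2 (beside -0.027 over all), and groups without overlap were found for 10 (7.69%, beside 10.3% of all). The nearest to a call was Timm29, a subunit of the carrier translocase. It was at 7.08, 7.38, 7.05 and 7.00 log2 in NTg gastrocnemius, against 6.84, 6.27, 6.49 and 6.37 in NTg triceps on 1452175_at. The gastrocnemius arrays were all above the triceps arrays, by 0.63 log2 (SE 0.16, adjusted p = 0.0541), but the second Timm29 probe set differed by -0.0043. Timm17b gave -0.60 log2 (1438656_x_at, SE 0.22, adjusted p = 0.186) and -0.32 on 1460685_at, Tomm7, a small subunit of the outer translocase, -0.42, -0.41 and -0.15, Mrpl9 0.58 on 1430976_a_at and Mrps23 0.56 on 1421874_a_at. Without NTg triceps replicate 1, Timm29 (0.75 log2, adjusted p = 0.0105), Mrpl9 (0.71, adjusted p = 0.0301) and Mrps23 (0.74, adjusted p = 0.0194) were called. The share of all probe sets called in that fit is not given here. Schwann cell markers moved with this comparison: 2 of 6 tested probe sets, both of Mbp, were called higher, with summed signals of 1717 to 2430 in NTg gastrocnemius and 606 to 686 in NTg triceps. Of 11 macrophage marker probe sets 2, both of the complement gene C1qb, were called lower and 10 were lower in all (median -0.55 log2), with summed signals of 825 to 1118 in NTg gastrocnemius and 1172 to 1778 in NTg triceps. The part of either marker list in the members' values was not tested.

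The subunits at the core of the import route, Timm23 apart, differed in how far they ranged. Tomm40, the channel of the outer membrane, has no probe set among the members. Over SOD1 against NTg and crush against NTg gastrocnemius, SOD1 against crushed gastrocnemius and SOD1 against NTg triceps, the receptor Tomm20 on 1423079_a_at, its brightest probe set, differed by 0.0051 to 0.086 log2, with group means of 10.52, 10.45, 10.44, 10.49 and 10.41 in SOD1, crushed and NTg gastrocnemius and in SOD1 and NTg triceps. The other Tomm20 probe sets ranged more widely, from -0.30 to 0.22 on 1435534_a_at, -0.13 to 0.084 on 1423080_at and -0.035 to 0.19 log2 on 1455357_x_at. Timm50, the receptor of the presequence translocase, differed by 0.012 to 0.13 and Timm17a by -0.19 to 0.011 log2. Timm22, the pore of the carrier translocase, ran from -0.088 to 0.29 on its tested probe set. Tomm22 ran from -0.43 to 0.012 on 1434420_x_at and from -0.14 to 0.14 log2 on 1429103_at. Timm17b ran from 0.085 to 0.49 on 1438656_x_at and from 0.068 to 0.41 log2 on 1460685_at. The 3 Timm44 probe sets ran from -0.40 to 0.34 and the 4 of Tomm70a from -0.23 to 0.58 log2, and in neither gene did they share a direction in the triceps. The 0.34 of Timm44 on 1448801_a_at in SOD1 against NTg triceps rests on SOD1 triceps replicate 3, at 10.70 log2 where the other 3 arrays lay between 8.96 and 9.04. Without that array it was -0.084 log2 (adjusted p = 0.855), beside -0.22 and -0.23 on the other Timm44 probe sets. The small TIM chaperones (7 tested probe sets) had 0 calls in every comparison and medians of 0.05, 0.0073, 0.027 and 0.0031 log2 in the same 4 comparisons, with 1, 2, 0 and 1 at an unadjusted p under 0.05.

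How well a gene's probe sets agreed limits these readings. Of 25 member genes with several tested probe sets, all pointed the same way for 14 genes in SOD1 against NTg gastrocnemius, 18 in crush against NTg, 20 in SOD1 against crush, 11 in SOD1 against NTg triceps and 12 between the NTg muscles. The SD within groups had a median of 0.199 log2 over the members, beside 0.248 over all tested probe sets, and ran from 0.0726 in Timm13 to 0.514 in Mrpl52 on 1460701_a_at. The 95% interval of a member's difference between groups reached a median of 0.30 log2 to either side. It lay within a doubling or halving for 129 of 130 members in SOD1 against NTg gastrocnemius and for 128 in crush against NTg.

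Set beside energy metabolism, the members had medians of -0.037 log2 in SOD1 against NTg gastrocnemius, 0.10 after crush, -0.17 in SOD1 against crush and -0.044 in SOD1 triceps. The respiratory chain (134 tested probe sets) had -0.14, 0.039, -0.17 and -0.34 in the same comparisons, with 0 calls in each and 5, 3, 4 and 59 at an unadjusted p under 0.05. In SOD1 triceps 130 of its 134 probe sets were lower, against 75 of 130 members. The 59 are 44% of its tested probe sets, beside 15.2% of all. Groups without overlap made up 7.46% of its probe sets there, beside 6.99% of all. Its array medians overlapped, at -0.0072, -0.23, -0.20 and -0.44 log2 in SOD1 and 0.038, 0.31, 0.27 and -0.14 in NTg triceps. All 9 fibre marker probe sets were also lower in SOD1 triceps, and their part in the respiratory chain's values was not tested. The TCA cycle with fatty-acid oxidation (52 tested) had -0.11, 0.11, -0.23 and -0.25 log2, with 44 probe sets lower in SOD1 triceps. In that list Pdk2, a kinase that restrains pyruvate dehydrogenase, fell in SOD1 against NTg gastrocnemius (-0.83 log2, SE 0.23, limma adjusted p = 0.0263), and Slc25a20, the acylcarnitine carrier, rose (0.56, SE 0.16, adjusted p = 0.0301). Pdha1, a subunit of pyruvate dehydrogenase, was higher in gastrocnemius than triceps of NTg mice (1.27 log2, SE 0.27, adjusted p = 0.0204).

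Lists of genes that work with the members are given for the same comparisons. The other genes of mitochondrial translation (23 tested) had -0.052 in SOD1 gastrocnemius, 0.22 after crush, -0.20 in SOD1 against crush and -0.065 log2 in SOD1 triceps, with 0 calls and 2, 5, 4 and 1 at an unadjusted p under 0.05. The other import and processing genes (22 tested) had -0.041, 0.0041, -0.14 and -0.00053 log2. Among them Immp1l, an inner membrane peptidase that removes import signals, fell in SOD1 gastrocnemius, with a mean of 8.65 ± 0.22 log2 against 9.33 ± 0.097 in NTg gastrocnemius (SD, n = 4 each; -0.68 log2, limma adjusted p = 0.0112). Upkeep and transcription of mitochondrial DNA with its nuclear regulators (18 tested) had -0.12, 0.052, -0.15 and -0.018 log2 and 0 calls, with 0, 1, 0 and 1 at an unadjusted p under 0.05. The proteins of the cytosolic ribosome (67 tested) had 0.16, 0.11, 0.061 and -0.021 log2, and Rpl27 (0.51, adjusted p = 0.0462) and Rps10 (0.40, adjusted p = 0.0353) rose in SOD1 gastrocnemius. These lists are described by their counts and medians and were not tested as lists.

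**Figure D4:**
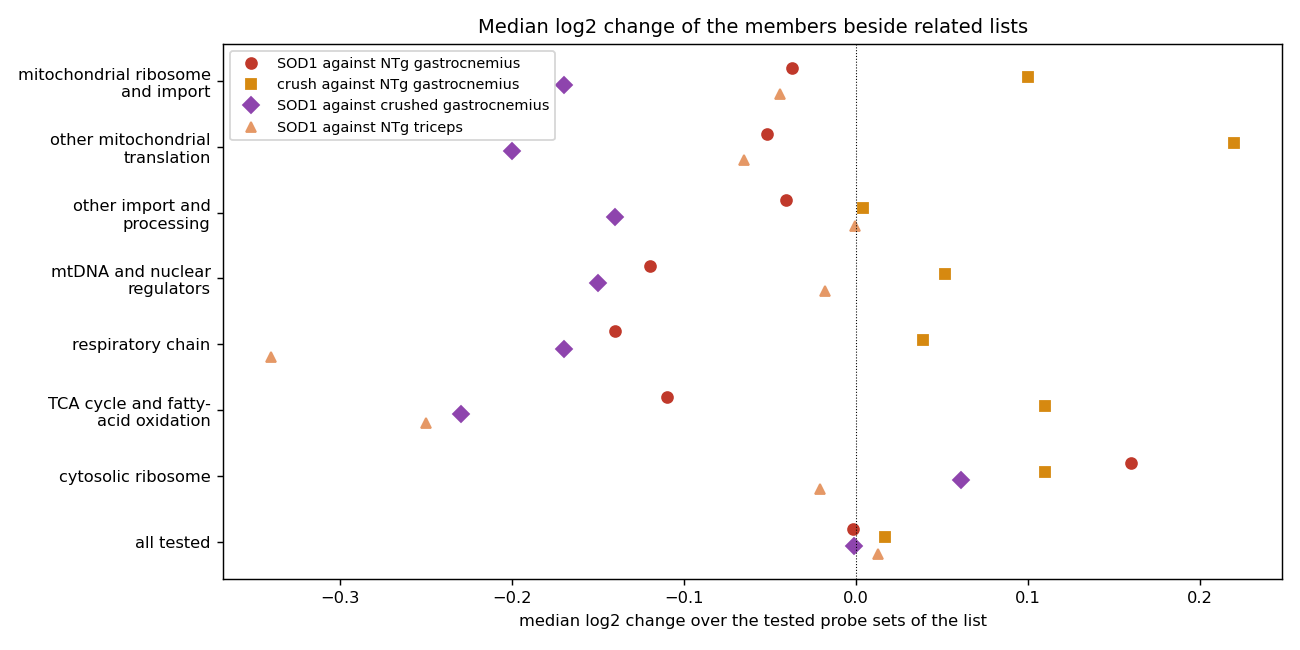
Median log2 change over the tested probe sets of each list (horizontal axis) for the members, 6 related lists and all tested probe sets (vertical axis) in 4 comparisons, told apart by colour and shape. The members stand at -0.037 in SOD1 and 0.10 after crush against NTg gastrocnemius, and the respiratory chain at -0.34 in SOD1 against NTg triceps.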

How the data were processed

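Total RNA of 20 mouse muscles was measured on 1-colour Affymetrix arrays, 4 arrays in each of 5 groups. The values were deposited as log2 signals, 1 column per array, and were made with MAS5 per the submitters' processing notes; the sources used here give neither the MAS5 version nor its target level nor a probe set filter, and scanner files were not used here. MAS5 sets perfect-match against mismatch probes, which spreads low signals, so the 30% of probe sets with the lowest mean were left out. Groups follow the sample titles. Probe sets were named through the platform's annotation (9874 probe sets with 1 symbol, 387 with several, 487 with none), and all 143 members matched RefSeq by gene ID.

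Differences were fitted on all 20 arrays with 5 group means in limma 3.58.1 (R 4.3.3; lmFit, contrasts and eBayes with a trend, 15 residual degrees of freedom), with p-values adjusted by Benjamini-Hochberg over 7523 probe sets in each of 6 comparisons and a threshold of 0.05. The fit was tested on simulated data. Precision is limited by the number of arrays. The members, the gene lists and the tests were chosen with earlier results of these data known. Genes were named when called, among the 3 largest differences in either direction of a comparison, the highest mean of a family, or a channel subunit or receptor of import; of the related lists, at most 4 called probe sets per comparison. Probe set 1428302_at and its like were added where they disagree with a named one. Same-numbered arrays were checked for pairing: the correlations of their deviations from group means ran from -0.249 to 0.622 and were not above 0.1 in every pair of any 2 groups, so numbers were not used as pairs. Alternatives were quantile normalization, the 75th percentile, other filters, the compared groups alone, array weights, no trend, 1 probe set per gene, a replicate block and each array left out. The analyses without crushed replicate 4 or NTg triceps replicate 4, in comparisons they are not part of, were added after the data were seen.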

Additional observations from a re-analysis of the deposited data

Results flagged for a closer look

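Groups of 4 arrays were checked for an array far from the other 3 in 39 probe sets, those named for their differences and those of the import core, and in the members' median. Of 200 groups 5 (2.5%) held one, where chance gives about 1 in 20. Tomm20 on 1435534_a_at was at 7.72 log2 in NTg gastrocnemius replicate 2, while the other 3 arrays of the group lay between 7.94 and 7.95. Timm29 on 1452175_at was at 7.43 log2 in crushed gastrocnemius replicate 3, while the other 3 lay between 7.13 and 7.17. In the same array Timm22 on 1448517_at was at 7.80 log2, with the others between 7.28 and 7.32. Timm44 on 1417670_at was at 6.60 log2 in crushed gastrocnemius replicate 4, with the others between 7.41 and 7.49, and Timm44 on 1448801_a_at was at 10.70 log2 in SOD1 triceps replicate 3, with the others between 8.96 and 9.04. With all arrays kept, none of the 5 probe sets was called in a comparison that holds its group.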

How the results depend on the processing

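Over 38 results that were called or among the largest differences of a comparison, and 711 refits of them, 642 kept their direction and their side of the threshold, 47 lost a call, 22 gained one and 0 changed sign. These results were picked for their size in the same data, so a kept sign is little support. Only a called result could lose a call, and many of the 642 are uncalled results that stayed uncalled. Mrpl41 on 1428589_at after crush kept its call in all 18 alternatives run on it, while the other 8 called results lost theirs in 4 to 9. The members' medians moved by less than 0.0796 log2, the pooled SD of array medians, under every alternative. In SOD1 against NTg gastrocnemius (6 called members) the count was 10 with the compared groups alone, 27 with array weights, 3 with 1 probe set per gene and 0 to 11 with an array left out. In crush against NTg gastrocnemius (3) it was 19 with array weights and 1 to 9 with an array left out. In SOD1 against crushed gastrocnemius (0) it was 28 with array weights and 0 to 10 with an array left out. Between the NTg muscles (0) it was 1 with quantile normalization, with the 75th percentile, with the compared groups alone or without crushed replicate 4, 4 with array weights and 0 to 3 with an array left out. In SOD1 triceps and for the difference between muscles it stayed at 0 throughout, with 0 to 16 members at an unadjusted p under 0.05. The cause of these moves was not tested. Apart from the crush fits without crushed replicate 4 described above, no share of all probe sets called is given for these refits or the block below. The counts are therefore not a result about the members alone. With replicate numbers as a block, which the labels do not tie to mice, the counts were 8 in SOD1 gastrocnemius, 4 after crush, 2 between the NTg muscles and 0 in the other comparisons, and no named call was lost; Mrpl42 in SOD1 gastrocnemius and Timm29 and Mrpl9 between the NTg muscles gained one. With 4 arrays a group, the 95% interval reached a median of 0.30 log2 to either side, and 0.42 for the difference between muscles. That reach matches an unadjusted p of 0.05, and a call took more: the smallest called difference was -0.44 log2, in Timm23. The 13 members below the filter were too dim to rank.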

Other observations

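The 13 members below the signal filter are Timm8a1, Timm9 (both probe sets), Timm22, Mrpl1, Mrpl15, Mrpl35, Mrpl51, Mrpl57, Mrps2, Mrps5, Mrps9 and Mrps25, and all but Timm9 have another probe set that was tested. Without the filter, limma called 0 of the 13 in any comparison, and the lowest adjusted p was 0.0683, in SOD1 against NTg gastrocnemius.

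Of the 5 probe sets that carry a second symbol beside a member's, that of Gm6238 and Mrpl30 (1423857_at) came nearest to a call in SOD1 against NTg gastrocnemius, at -0.42 log2 (SE 0.15, limma adjusted p = 0.0793), and at -0.14 log2 after crush (adjusted p = 0.668). That of Gm8069 and Tomm5 (1415733_a_at) gave 0.094 log2 in SOD1 (adjusted p = 0.773) and 0.46 log2 after crush (SE 0.17, adjusted p = 0.15) against NTg gastrocnemius. The probe sets of Prickle4 and Tomm6 gave -0.17 and -0.22 log2 in SOD1 and -0.23 and -0.38 after crush, and that of Ccdc142 and Mrpl53 gave -0.094 in SOD1 and 0.056 log2 after crush. None was called, and the gene behind each signal was not told apart.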
